A study of Mus musculus with 2 samples.

Results

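The genes described here are 56 members of the DNA repair and damage-checkpoint machinery, of 21368 named genes on the arrays. They were listed by name, each was found through the RefSeq accession of its probes, and each took the value of the brightest of its probes that passed the software's flag for signal well above background on both arrays. A total of 49 members could be measured in this way. On neither array did the probes of Chek1, Brca1, Rad54l, Exo1, Neil3 and Fancd2 pass it, and no probe matched Rad51c by accession, so it was not analysed here.

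Heart RNA was hybridised to 1-colour Agilent arrays, 1 array per group. The WRN-K577M array held RNA of a transgenic B6.Cg-Tg line, 5025Wcl/Mmmh, with the transgene CAG-WRN*K577M, which carries a helicase-domain substitution of WRN under the broadly active CAG promoter, and the control array held RNA of a heart without a listed allele. Both samples were of C57BL6 background, both titles carry the letters ND, and age, sex and whether hearts were pooled are not given in the sources used here. WRN is a RecQ-family DNA helicase, so the comparison asks here how transcripts of the repair machinery stand in a heart that expresses the altered helicase. A level is the log2 signal relative to the 75th percentile of its array, and ratios are differences of levels, WRN-K577M minus control, on the log2 scale.

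Cells sense broken DNA through the kinases ATM and ATR, which recruit adaptors to chromatin and activate the checkpoint kinases. Breaks are then joined end to end or repaired from a sister chromatid by homologous recombination, in cells that have copied their DNA. Altered bases are removed by base excision repair, bulky adducts by nucleotide excision repair, and copying errors by mismatch repair. Most adult cardiomyocytes do not divide, and base, single-strand break and end-joining repair do not need a replicated chromosome.

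Genotypes could not be tested against each other with 1 array each, and every ratio below also holds any other difference between the samples. Measurement error on the array can be given. Between repeated spots of a probe, the SD of the ratio was 0.13 over 269 detected probes with 10 spots each. The scanner software's own error of the ratio lay between 0.20 and 0.32 for the 49 measured members, with a median of 0.20. Both errors cover measurement alone and not the spread between hearts. Of the probes for mouse Wrn itself, one stood at -3.23 in the WRN-K577M heart and -3.02 in the control, and the other was detected only in the WRN-K577M heart, at -3.96. No source used here says if these probes read the transgene as well, and they are no check of the genotype.

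The transcripts of the repair machinery were close to equal on the arrays. In the WRN-K577M heart Xrcc3 and Fanca were lower by 1.5-fold or more, Rad52 was higher by as much, and the other 46 measured members lay within 1.5-fold (a log2 ratio of 0.58). These 3 genes make 6.12% of the measured members, where 15.9% of all 14003 measured genes were at least 1.5-fold different. By direction, 1 of 49 members was as much higher, against 6.76% of all genes, and 2 were as much lower, against 9.16%. At 2-fold, Xrcc3 and Fanca were the lower members (4.08%, against 3.46% of all genes), and no member was as much higher, against 1.94% of all genes. The ratio of 34 of 49 members lay above 0, which is 69.4%, where 52.4% of all genes did. With the deposited matrix 30 did, and H2afx, Pcna, Msh6 and Ddb2 turned below 0. That matrix moves the ratio of every gene by the same -0.051. The median log2 ratio with it was 0.064 for the members and -0.030 for all measured genes, so the 52.4% does not apply to that count. The members' median log2 ratio was 0.12, with quartiles of -0.084 and 0.29, and that of all measured genes was 0.020. At a lower mark, a log2 ratio of 0.32 in either direction, 12 members were higher (24.5%, against 17.7% of all genes) and 3 were lower (6.12%, against 18.4%). A total of 8 members differed by more than 2 software errors, 6 higher and 2 lower. They make 16.3% of the measured members, where 24.9% of all measured genes differed by as much.

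**Figure D1:**
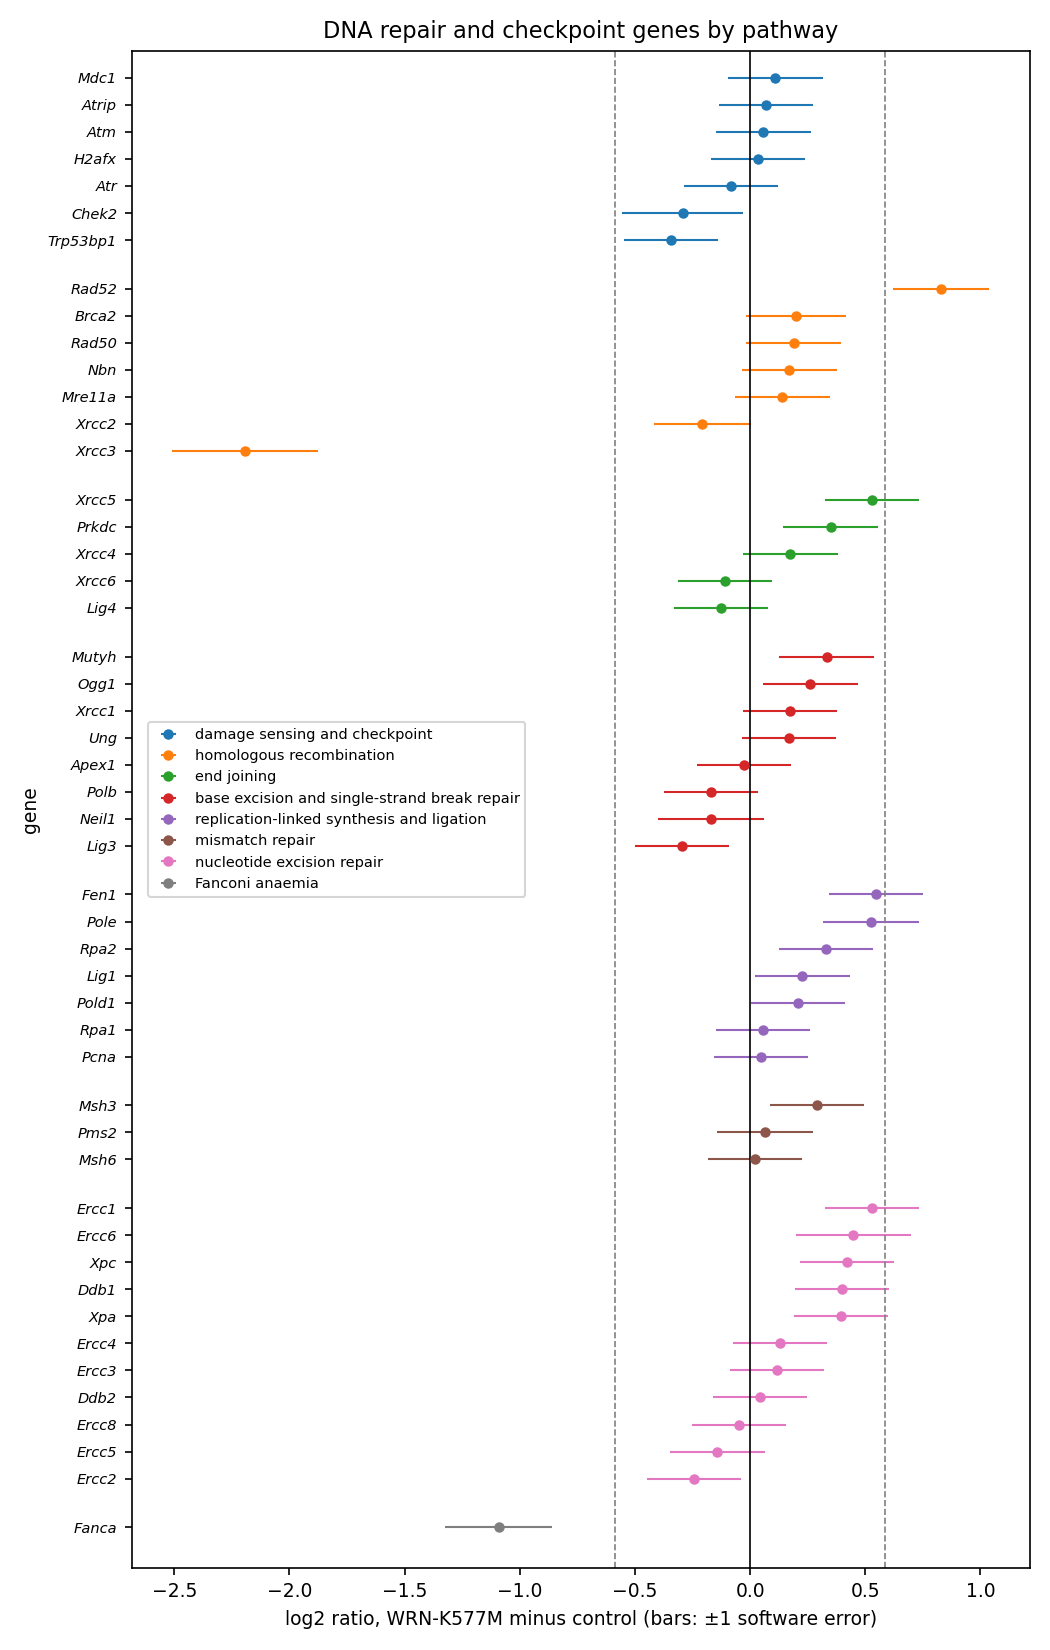
Log2 ratio of each of the 49 measured genes, WRN-K577M minus control, 1 row per gene, coloured and grouped by pathway. Bars are 1 software error to each side and dashed lines mark 1.5-fold. Rad52 alone lies beyond the upper line, Xrcc3 and Fanca beyond the lower one, and all 7 genes of replication-linked synthesis lie to the right of 0, where Rpa1 turned below 0 after normexp and Pcna with the deposited matrix.

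The promoters of the 3 genes beyond 1.5-fold are printed because those genes carry the differences. Each stretch is the 200 bases before the annotated start, 5′ to 3′ on the gene's strand, from RefSeq on GRCm38.p6. It is chr6:119902498-119902697 on the plus strand for Rad52, chr12:111813880-111814079 on the minus strand for Xrcc3 and chr8:123318577-123318776 on the minus strand for Fanca. Capitals mark the letters CCAAT (the CCAAT box, bound by NF-Y), GGGCGG (the GC box, bound by Sp1-family factors) or their reverse complements.
Rad52: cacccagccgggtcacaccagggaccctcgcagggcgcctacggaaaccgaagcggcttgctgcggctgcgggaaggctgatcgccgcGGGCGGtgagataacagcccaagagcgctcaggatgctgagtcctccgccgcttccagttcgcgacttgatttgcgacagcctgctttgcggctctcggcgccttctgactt
Xrcc3: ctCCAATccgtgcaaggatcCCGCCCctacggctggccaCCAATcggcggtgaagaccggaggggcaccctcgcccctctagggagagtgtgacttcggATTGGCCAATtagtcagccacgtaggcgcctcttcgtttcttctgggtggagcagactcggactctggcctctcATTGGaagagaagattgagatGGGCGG
Fanca: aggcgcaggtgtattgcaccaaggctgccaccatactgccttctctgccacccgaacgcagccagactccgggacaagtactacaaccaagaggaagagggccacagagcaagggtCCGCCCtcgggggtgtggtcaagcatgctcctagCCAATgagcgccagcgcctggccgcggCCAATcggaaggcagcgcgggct

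The Xrcc3 stretch held 5 CCAAT letters and 2 GC boxes, the Fanca stretch 2 and 1, and the Rad52 stretch none and 1. The GC content was 65.5% for Rad52, 60.5% for Xrcc3 and 64.0% for Fanca. Over the full 300-base windows, 250 before and 50 after the start, 39 measured members had a RefSeq promoter. CCAAT occurred on either strand in 59.0% of these members and in 42.1% of the 11136 measured genes with a promoter. GGGCGG occurred in 74.4% of the members and in 64.4% of the measured genes. The E2F letters TTTCGCGC, TTTGGCGC, TTTCCCGC or TTTGCCGC occurred in 8 of the 39 (20.5%) and in 4.29% of the measured genes. E2F factors are known to drive genes of the S phase, the part of the cell cycle in which DNA is copied. The 8 members with the E2F letters had log2 ratios between -0.29 and 0.29 with a median of 0.15, and the 31 without had a median of 0.070. For the other motifs the order was the opposite, with a median of 0.057 for the 23 members with CCAAT and 0.20 for the 16 without, and of 0.064 for the 29 with GGGCGG and 0.19 for the 10 without. Rad52, Xrcc3 and Fanca were all among the 31 members without the E2F letters and among the 29 with GGGCGG. Xrcc3 and Fanca were among those with CCAAT, and Rad52 was not.

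Damage sensing and checkpoint genes were near equal. Of 7 measured members none was 1.5-fold different, against 15.9% of all measured genes, and the median log2 ratio was 0.033. Trp53bp1 encodes 53BP1, the chromatin adaptor that favours end joining over resection. It had a level of 0.68 on the WRN-K577M array and 1.02 on the control array, a log2 ratio of -0.34. A second Trp53bp1 probe gave -0.12. Chek2, the checkpoint kinase that ATM activates, stood at -3.27 in the WRN-K577M heart, against -2.98 in the control, a ratio of -0.29 that was 0.21 after normexp background correction, a model that separates spot signal from local background. Mdc1, the adaptor that reads phosphorylated H2AX, had a level of -0.11, against -0.22 in the control. The kinase genes Atm (0.057) and Atr (-0.084), the ATR partner Atrip (0.070) and H2afx, the histone variant that ATM marks at breaks (0.033), had log2 ratios under 1 software error from 0. With the scaling on the median of all probes and with the deposited matrix, the median of this list was below 0 (-0.0084 and -0.017). Under the same settings the median of all measured genes was -0.022 and -0.030.

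A second Atm probe was printed at 10 spots on each array. Its spots lay between -2.92 and -2.50 with a median of -2.82 in the WRN-K577M heart, against -3.15 to -2.81 with a median of -2.92 in the control. The spots of the arrays overlap, and the mean ratio was 0.14 with an SD of 0.18 over spots.

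Homologous recombination held the members farthest from 0 in both directions. Rad52 encodes a protein that anneals single strands and, in mammals, assists recombination beside BRCA2. Its probe had 10 spots, of which 2 were outliers and were left out. The other 8 lay between -0.53 and -0.34 with a median of -0.46 on the WRN-K577M array, against -1.43 to -1.16 with a median of -1.25 on the control array. No spot of one array reached the range of the other. The mean log2 ratio was 0.83 (1.78-fold), with an SD of 0.13 over the 8 spots and all 8 above 0. With the outlier spots kept it was 0.86, and after normexp it was 0.56, just short of 1.5-fold. Rad52 stood at place 449 from the top among the 14003 measured genes.

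**Figure D2:**
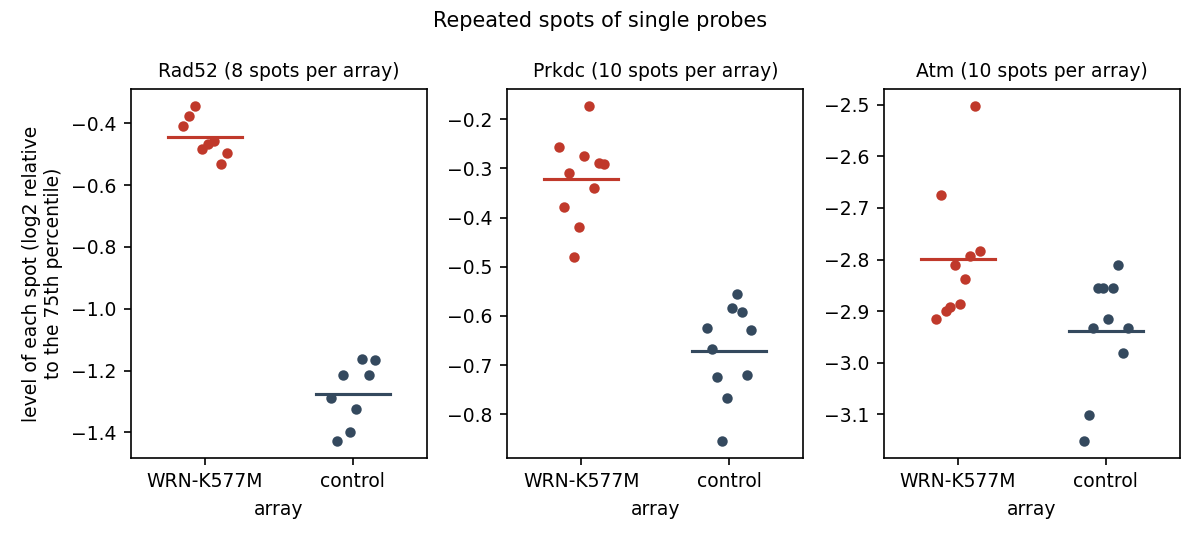
Level of each spot for the 3 genes with a probe printed repeatedly, Rad52, Prkdc and a second probe of Atm, on the WRN-K577M array (left) and the control array (right) of each panel. Lines mark means, each panel has its own vertical axis, and spots are repeats within an array, not replicate hearts. The Rad52 and Prkdc spots of the arrays do not overlap and the Atm spots do.

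Xrcc3 encodes a protein that helps to resolve recombination intermediates. It was read by 1 probe with 1 spot, at -4.04 in the WRN-K577M heart and -1.85 in the control. The log2 ratio was -2.19 (4.57-fold lower) with a software error of 0.32, and Xrcc3 stood at place 68 from the bottom among the 14003 measured genes. The WRN-K577M level was close to the limit of detection, since the dimmest named probe that passed the flag on that array lay at -4.42. After normexp, which pulls dim signals together, the ratio was -0.64, still past 1.5-fold. Xrcc2, which also acts in homologous recombination, stood at -1.29 in the WRN-K577M heart, against -1.08 in the control, a ratio of -0.21. A second, dimmer Xrcc2 probe did not pass the detection flag on the WRN-K577M array, with levels of -4.30 there and -3.88 on the control array. It and a second Pms2 probe, at -4.34 in the WRN-K577M heart and -4.03 in the control, were, by the lower of the levels on the arrays, the brightest of the members' probes that the flag left out. The Xrcc3 probe and a second Trp53bp1 probe, at -3.86 in the WRN-K577M heart and -3.74 in the control, were by the same measure the dimmest it kept.

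The MRN complex, which finds and trims broken ends, had ratios above 0 for its 3 subunits. Rad50 had a log2 ratio of 0.19, Nbn of 0.17 and Mre11a of 0.14. A second, dimmer Rad50 probe had 0.62, and the mean over the probes was 0.41. Brca2, a mediator of homologous recombination, had 0.20.

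Fanca belongs to the core complex of the Fanconi anaemia pathway, which repairs crosslinks between DNA strands. It stood at -2.75 in the WRN-K577M heart and -1.66 in the control, a log2 ratio of -1.09 (2.13-fold lower) with a software error of 0.23. It was read by 1 probe with 1 spot. After normexp the ratio was -0.38, short of 1.5-fold. Fancd2, the protein that the core complex modifies, did not pass the detection flag, with levels of -6.45 in the WRN-K577M heart and -6.85 in the control.

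The measured genes on either side of these 3 had ratios closer to 0 than they did. The 3 were picked by their large ratios, and 15.9% of all measured genes were at least 1.5-fold different, so most genes would lie closer to 0. Next to Xrcc3 stood Klc1 (-0.37) and Zfyve21 (-0.32), next to Fanca Zfp276 (-0.19) and, as the nearest measured gene on the other side, Tcf25 (0.33), and next to Rad52 Erc1 (0.34) and Wnk1 (-0.47).

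Most measured markers of lung, leukocytes, atrium and fat were lower in the same WRN-K577M heart as Xrcc3 and Fanca. Of 10 lung and airway markers 3 were measured, all lower, and 5 were above background on the control array only, among them the surfactant gene Sftpc. The summed signal of the lung list was 10.8 in the WRN-K577M heart, against 149 in the control, in multiples of the 75th percentile. Most of the WRN-K577M sum came from Lamp3, at 3.37 there and 3.84 in the control (-0.47), so the sums understate the gap of the other lung markers. All 10 measured leukocyte markers of 12 were lower, with a median log2 ratio of -1.13 and summed signals of 20.7 in the WRN-K577M heart and 73.6 in the control, led by S100a8 (-4.98) and S100a9 (-4.98). The atrial list (7 of 8 measured, all lower) summed to 157 in the WRN-K577M heart and 657 in the control, led by Sln (-9.41) and Myl7 (-7.39). Most of the WRN-K577M sum came from Nppa, at 7.26 there and 8.32 in the control (-1.06), so these sums too understate the gap of the other markers. The adipocyte list (7 of 10 measured, 5 lower) had a median of -2.71, led by Car3 (-4.20) and Adipoq (-3.31), with Fabp4 and Lpl, which heart muscle also expresses, above 0. With those genes in it, the summed signal of the adipocyte list was 704 in the WRN-K577M heart and 563 in the control. The part of these cells in the Xrcc3 and Fanca values was not tested. In whole tissue, fewer cells of a type and less RNA per cell cannot be told apart. All 10 cardiomyocyte markers were measured, with ratios between -0.16 for Ttn and 0.25 for Myl3. Of these 9 lay above 0, and 3 did after quantile normalization.

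Of the 5 measured end-joining genes 3 had ratios above 0, with a median of 0.18, and none reached 1.5-fold. Of all measured genes 52.4% were above 0 and 15.9% reached 1.5-fold. Xrcc5, the KU80 subunit of the ring that binds broken ends, stood at 1.98 in the WRN-K577M heart and 1.45 in the control, a log2 ratio of 0.53. Its partner KU70, encoded by Xrcc6, had a ratio of -0.11, and the subunits differed from each other by 0.63, which is 2.20 software errors of that difference. Prkdc encodes DNA-PKcs, the kinase that Ku recruits. Its 10 spots lay between -0.48 and -0.17 with a median of -0.30 in the WRN-K577M heart, against -0.85 to -0.56 with a median of -0.65 in the control. The ranges do not overlap, and the ratio was above 0 at all 10 spots, with a mean of 0.35 and an SD of 0.056. Xrcc4, the scaffold of the ligation step, had a level of 0.14, against -0.039 in the control. Lig4, the ligase it binds, had a ratio of -0.13.

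Base excision and single-strand break repair genes were spread evenly around 0, with 4 of 8 measured members above it and a median of 0.070, and 5 were above 0 after normexp, where Neil1 turned to 0.063. Mutyh, which removes adenine placed opposite oxidised guanine, stood at -0.68 in the WRN-K577M heart and -1.01 in the control (0.33). Ogg1, the glycosylase for oxidised guanine itself, had -0.47, against -0.73 in the control (0.26). Ung, the uracil glycosylase, had a ratio of 0.17, and Neil1, which removes oxidised pyrimidines, of -0.17. The nuclease Apex1 (-0.028), the gap-filling polymerase gene Polb (-0.17) and the scaffold Xrcc1 (0.17) were also within 1 software error of 0. The probes of Lig3, the ligase that XRCC1 carries, disagreed. The brighter one had levels of -0.51 in the WRN-K577M heart and -0.22 in the control (-0.30), and the dimmer one had a ratio of 0.41, so the mean over the probes was 0.057.

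All 7 measured genes of replication-linked synthesis and ligation had ratios above 0, between 0.047 and 0.55, with a median of 0.23, but Rpa1 was at -0.058 after normexp and Pcna at -0.0032 with the deposited matrix. None reached 1.5-fold. Fen1, the flap nuclease of long-patch repair and lagging-strand processing, stood at 1.27 in the WRN-K577M heart and 0.73 in the control (0.55). Pole, the catalytic subunit of the leading-strand polymerase, had -0.71, against -1.24 in the control (0.53). A second Pole probe did not pass the detection flag. Rpa2, a subunit of the complex that coats single strands, had 0.043, against -0.29 in the control (0.33), while the larger subunit Rpa1 had a ratio of 0.056. The replicative ligase Lig1 (0.23), the lagging-strand polymerase subunit Pold1 (0.21) and the sliding clamp Pcna (0.047) made up the rest. After normexp the median of this list was 0.18, and with the deposited matrix it was 0.18.

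Proliferation markers lay on both sides of 0. Of 25 listed, 17 were measured, 9 of them above 0, with a median of 0.065. With levels of at least -2 required 9 were measured, 8 of them above 0, with a median of 0.33. Among these 8 were the 6 subunits of the MCM helicase of DNA copying. That setting left out all 6 measured mitotic genes, of which 5 lay below 0. Mki67, a nuclear protein of cycling cells, had a ratio of 1.31 and Ube2c, which acts in mitosis, one of -1.92. The summed signals of that list were 16.3 in the WRN-K577M heart and 13.3 in the control. Its part in the replication-linked values was not tested.

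Mismatch repair genes were near equal, and the sign of Msh6 turned after normexp, with the median scaling and with the deposited matrix. Msh3, a sensor of small loops in copied DNA, stood at 1.21 in the WRN-K577M heart and 0.92 in the control by its brightest probe (0.29). The other Msh3 probes gave 0.26 and 0.81. Msh6, which finds single mispaired bases, stood at 1.37 in the WRN-K577M heart and 1.35 in the control, and Pms2, the endonuclease subunit, at -1.27 in the WRN-K577M heart and -1.33 in the control.

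Nucleotide excision repair genes had a median log2 ratio of 0.13, with 8 of 11 above 0 and none 1.5-fold different. Of all measured genes 52.4% were above 0 and 15.9% at least 1.5-fold different. The number above 0 was 7 after normexp, where Ercc3 turned below 0, and 7 with the deposited matrix, where Ddb2 did. Xpc, the sensor of distorted DNA across the genome, stood at 1.40 in the WRN-K577M heart and 0.98 in the control (0.42). Xpa, which verifies the lesion, had 2.61, against 2.21 in the control (0.40), and its second probe gave 0.27. Ddb1, an adaptor of the CUL4 ubiquitin ligase, had 5.97, against 5.57 in the control (0.40), while its ultraviolet-damage partner Ddb2 had a ratio of 0.044.

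Ercc1, which with XPF cuts on the 5′ side of the lesion, stood at 1.95 in the WRN-K577M heart and 1.41 in the control (0.53). Ercc4, the gene of XPF, had a ratio of 0.13. Ercc6, the Cockayne syndrome B protein that acts at stalled RNA polymerase, had -2.67, against -3.12 in the control (0.45), and its partner gene Ercc8 had -0.048. The TFIIH helicase genes Ercc2 (-0.24) and Ercc3 (0.12) and the 3′ nuclease gene Ercc5 (-0.14) completed the list.

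Pairs of members were set side by side in 12 comparisons that were chosen after the values had been seen. Xrcc2 against Xrcc3, with a difference of 1.98 (5.24 software errors), and Xrcc5 against Xrcc6 were the comparisons beyond 2 software errors. Xrcc2 and Xrcc3 were paired as recombination proteins and not as partners in a complex. That difference rests on the single Xrcc3 spot near the limit of detection. After normexp the ratios were -0.0096 for Xrcc2 and -0.64 for Xrcc3.

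**Figure D3:**
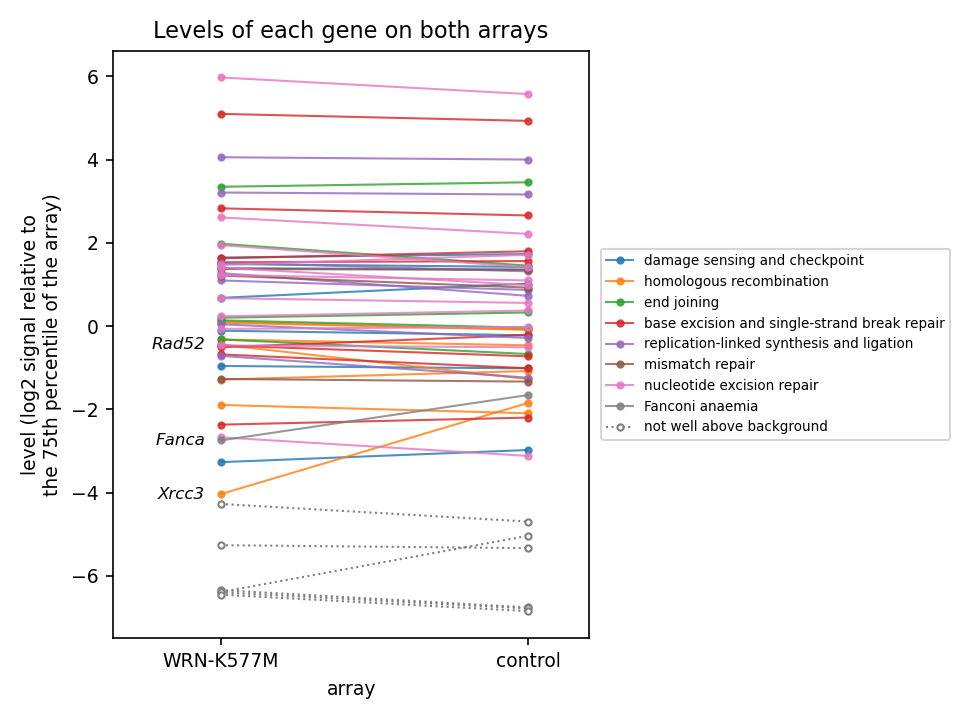
Level of each gene on the WRN-K577M array (left) and the control array (right), joined by a line and coloured by pathway, as log2 signal relative to the 75th percentile. Open grey circles are the 6 genes not well above background. Heights of different genes come from different probes and are not comparable, and the steep lines are those of Xrcc3 and Fanca.

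A list of 88 other DNA repair genes gave the surroundings. Of these, 82 were measured, and 5 were higher and 3 lower by 1.5-fold or more, together 9.76%, against 15.9% of all measured genes. The median was 0.035 and 45 lay above 0. With the deposited matrix the median was -0.016, where that of all measured genes was -0.030. With the median scaling it was -0.0067, where that of all measured genes was -0.022. The higher ones were Neil2, a glycosylase for oxidised bases in open DNA (2.38-fold), Wee1, the kinase that holds cells before mitosis (log2 ratio 0.85), Mpg, the glycosylase for alkylated bases (0.78), the junction nuclease gene Gen1 (0.68) and Mbd4, a glycosylase at methylated sites (0.63). The lower ones were Pole2 (-0.76), Pms1 (-0.68) and Pole4 (-0.61). Neil2, Wee1 and Mpg were also past 1.5-fold after normexp (0.98, 0.68 and 0.71), and Gen1 (0.38) and Mbd4 (0.32) were not. None of the lower ones was past it after normexp, with Pms1 at -0.34, Pole4 at -0.46 and Pole2 turned to 0.049. After cyclic loess 3 were higher, without Gen1 (0.53) and Mbd4 (0.54), and with the deposited matrix 4, without Mbd4 (0.58). Neil2 stood at -0.17 in the WRN-K577M heart, against -1.42 in the control.

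**Figure D4:**
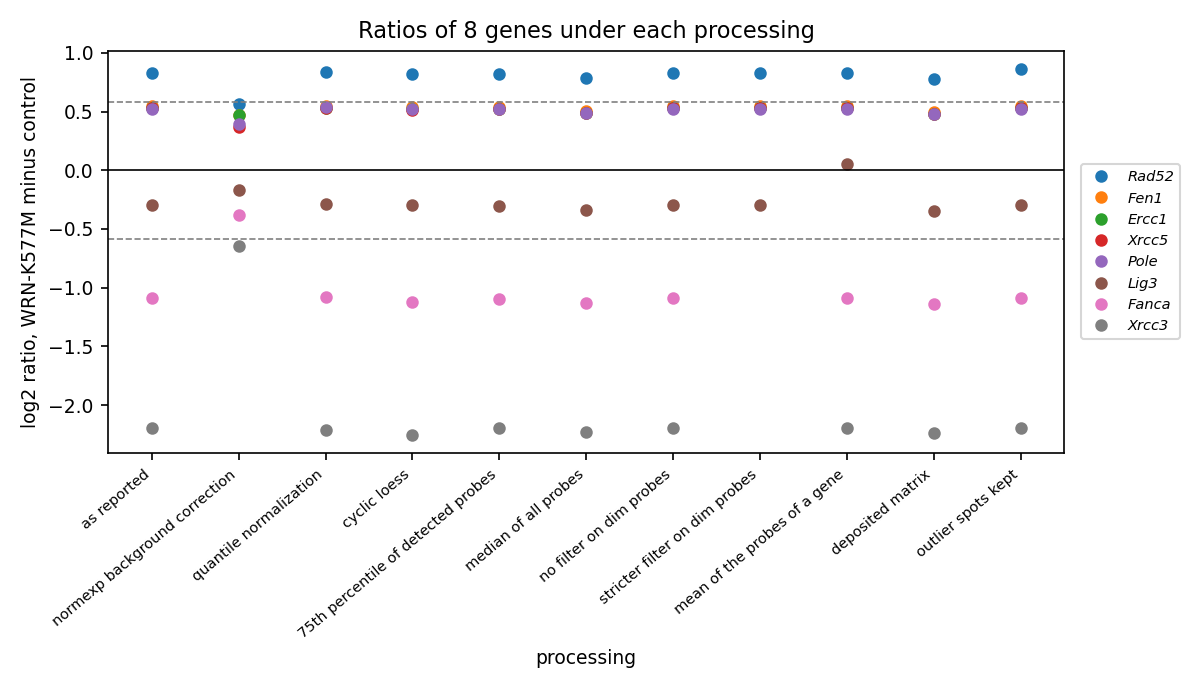
Log2 ratio, WRN-K577M minus control, of 8 genes (vertical axis) under the values as reported and the 10 other ways of processing (horizontal axis). Dashed lines mark 1.5-fold. Normexp draws Xrcc3, Fanca and Rad52 towards 0, the stricter filter leaves Xrcc3 and Fanca out, and Lig3 crosses 0 where its probes are averaged.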

How the data were processed

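Cy3-labelled cRNA from total RNA of heart was read on 1-colour arrays, 1 per group, and groups follow the genotype in the labels. The deposited spot files hold intensity from Agilent Feature Extraction 11.5.1.1, background-subtracted, detrended and unscaled across arrays, per the file headers. Per the file headers, flags of 0 or 1 mark spots as outliers, as saturated or as detected well above background. The series matrix deposited by the authors is the same intensity times 4.86 for the WRN-K577M array and 4.12 for the control array, with column medians of 79.0 for WRN-K577M and 79.5 for control. It is linear and not centred by gene, and no source used here says where the factors come from.

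Control spots and 257 outlier spots were left out, no spot was saturated, and repeated spots were averaged per probe. The log2 processed signal minus the 75th percentile (210 for WRN-K577M and 256 for control) was the level. A probe was well above background when most of its spots were. Counted by any spot, outliers included, 52.9% of 55681 probes passed in the WRN-K577M heart and 55.2% in the control. Names came from RefSeq accessions, versions removed, in a GRCm38.p6 table, which matched 22544 of 23871 accessions. The other 27350 probes are unnamed here, and H2afx was found under its current symbol. The array design is annotated on mm9, so the table gave names and gene order, and coordinates stand only beside RefSeq promoters.

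The software error combines the relative signal errors of both arrays. With 1 array per group no p-value exists, the number of arrays limits the precision, and genes were counted at 1.5-fold. The members and lists were chosen with earlier results of these data known. Levels are printed for the 3 members with the largest absolute ratio in each pathway and those whose probes differ by 1.5-fold or more in ratio. Members with levels outside this rule, such as Xpa and Ddb1, were chosen after their values were seen, as were other named genes. Other ways of processing are in the closing section, and keeping outlier spots was added after seeing the data. The counting code was run on simulated 2-fold differences with noise of the size seen between spots. That run does not cover the spread between hearts or the loss of dim signals. Calculations used Python 3.11.15, numpy 2.4.6, pandas 2.3.3, R 4.3.3, limma 3.58.1 and matplotlib 3.10.9.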

Additional observations from a re-analysis of the deposited data

How the results depend on the processing

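No paired analysis was possible because each group has 1 array, and for the same reason no array could be left out. Quantile normalization, cyclic loess, both other scalings, averaging over probes, the deposited matrix and the kept outlier spots left 1 member at least 1.5-fold higher and 2 lower, and the members' median between 0.064 and 0.12. After normexp with an offset of 50, 0 members were higher and 1 lower, 514 of all genes were higher and 678 lower, the single Fanconi anaemia value was -0.38, and Pole2 turned to 0.049. The cause was not tested, and after normexp the ratios of 5 of 49 members moved by over 1 software error and 5 changed sign. Without a filter on dim probes 55 members had a value, 1 higher and 3 lower, since Exo1 entered at -1.35 from a probe undetected on both arrays. There 2553 of all genes were higher and 2288 lower, and the Fanconi anaemia median was -0.35 since Fancd2 entered. With levels of at least -2 required, 43 members remained, 1 higher and 0 lower since Xrcc3 and Fanca were left out, and 581 of all genes were higher and 797 lower. At a log2 ratio of 0.32, 12 members were higher, and at 2-fold 0. Signal over background limits Xrcc3, Fanca and the 6 undetected members.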

Other observations

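DNA glycosylases, the enzymes that open base excision repair by cutting out an altered base, were gathered from both repair lists after their values had been seen. Of 11 genes 10 were measured, 7 had ratios above 0 and the median log2 ratio was 0.30, and after normexp 10 were above 0 with a median of 0.22. Neil2 (2.38-fold), Mpg (log2 ratio 0.78) and Mbd4 (0.63) were at least 1.5-fold higher in the WRN-K577M heart, where 6.76% of all measured genes were, and Mbd4 was short of it after normexp (0.32), after cyclic loess (0.54) and with the deposited matrix (0.58). Next came Nthl1 (0.41), which removes oxidised pyrimidines. Smug1 (-0.0042), a second uracil glycosylase, Tdg (-0.087), which removes thymine from mispairs, and Neil1 (-0.17) lay below 0, which normexp turned for all 3 and quantile normalization for Smug1.

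The subunits of the MCM helicase, which opens DNA for copying, were all measured. All 6 genes were above 0, with a median of 0.44, where 52.4% of all measured genes were above 0. The 6 were above 0 under the 10 other ways of processing too. Mcm4 (0.70) was at least 1.5-fold higher, where 6.76% of all measured genes were, and Mcm6 (0.16) had the lowest ratio of the 6. The MCM genes were taken from the proliferation list. Of its other genes linked to DNA copying, Rrm2 (-0.73), Gins2 (-0.62) and Tyms (-0.25) lay below 0. Cdt1 (0.065) lay above 0 and Cdc6 was not measured. Of 13 mitotic genes 6 were measured and 5 were below 0, among them Birc5 (-0.98) and Ccnb2 (-0.96). The median was -0.76, and -0.13 after normexp. These genes were dim, and with levels of at least -2 required 0 of them were measured. Cdk1 was detected on the WRN-K577M array only, at least 1.97-fold higher. Ccnb1 and Cenpf were detected on the control array only, at least 1.11-fold and 1.80-fold lower in the WRN-K577M heart. These groups too were formed after the values had been seen.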
